A study of Mus musculus with 14 samples.

Results

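The genes described here are the enzymes and transporters of glycolysis, gluconeogenesis and the pentose phosphate pathway. A fixed list of 43 mouse gene symbols was looked up by exact symbol among the 24972 symbols of the deposited expression table, and all 43 were found. Of these, 36 had a mean of at least 10 normalized counts over the 14 libraries and entered the test that was run on 12711 genes. Hk3, Pgam2, Ldhb, Fbp1, Fbp2, G6pc and Pck1 did not reach that level and are given by their values only.

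Glycolysis turns glucose into pyruvate, and most of its steps can be run by several isoforms with different tissue preferences. Gluconeogenesis runs the route backwards in liver and kidney, with its own enzymes at the irreversible steps. The pentose phosphate pathway branches off after hexokinase, and its oxidative branch makes NADPH, the reductant that fatty acid and cholesterol synthesis consume. The cytosolic acetyl-CoA for that synthesis is made from citrate by ACLY, ATP-citrate lyase, and from acetate by ACSS2, an acyl-CoA synthetase.

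RNA-seq was done on 4 lines of cultured mouse hepatocellular carcinoma cells, all derived from tumor cells that carried Acly alleles flanked by loxP sites. Wild-type cells (WT, 4 libraries) and ACLY knockout cells (ACLY KO, 4 libraries), the latter a clone grown from a single cell after adenoviral Cre, both carried an empty LentiCRISPR vector and were used in bulk after transduction. ACSS2 knockout cells (ACSS2 KO, 3 libraries) and ACLY/ACSS2 double knockout cells (DKO1, 3 libraries) were single-cell clones made from WT and from ACLY KO with a guide against ACSS2. Every line was held for 24 h in medium with 10% calf serum before RNA was taken. Since each knockout is 1 clone and nothing ties the libraries to separate clones, genotype and clone cannot be told apart, and p-values measure the spread between libraries, which may be technical. Fewer cells of a type and less RNA per cell cannot be told apart in such bulk libraries.

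The values are the normalized counts of the deposited table, and totals ran from 23565707 to 26946164 per library. Acly stood at 6050 ± 423 (SD) for WT, 1001 ± 56.1 for ACLY KO, 5684 ± 124 for ACSS2 KO and 945.5 ± 12.9 for DKO1, as the labels say. Acss2 stood at 237 ± 11.5 in WT and 132.3 ± 4.88 in ACSS2 KO, but at 717.9 ± 56.7 in ACLY KO and 534.9 ± 69.1 in DKO1, so its level checks the guide less directly. Of the hepatocyte markers Krt8 and Krt18 were at 11840 to 33760 and Hnf4a at 16.35 to 193.4. Alb was at 7.1 to 137.2, Ttr at 0 to 39.73, Serpina1a at 0 to 2.566 and Apoa1 at 0 to 1.497, so these genes of secreted proteins were low or near 0. The sum of Afp, Gpc3, H19 and Igf2, markers of hepatocellular carcinoma or fetal liver, differed by genotype. It was 39.04 to 107.9 for WT, 142.9 to 155.2 for ACLY KO, 63.17 to 83.18 for ACSS2 KO and 182.1 to 416.2 for DKO1. The part of this sum in the results was not tested. Of the cholangiocyte markers Krt19 and Krt7 were at 3860 to 16200 and Sox9 at 351.6 to 741.4, whereas Epcam was at 1.634 to 22.98. The sum of these 4 was 21650 to 31970 for WT, 8608 to 9374 for ACLY KO, 18270 to 20520 for ACSS2 KO and 11190 to 18280 for DKO1. The sum of 5 fibroblast or stellate markers (Col1a1, Col1a2, Dcn, Pdgfrb and Acta2) was 2112 to 2409, 3127 to 3525, 5229 to 6165 and 1503 to 1657 in the same order, and the part of either in the results was not tested. Of 4 leukocyte markers Csf1r was at 991.8 to 1413 while Ptprc, Adgre1 and Cd3e did not exceed 28.21. DKO1 replicate 4 and WT replicate 2 stood apart from their groups in a way that followed transcript length (Spearman rho of the deviation with length -0.7 and -0.61 across genes, which are not independent replicates). The same rho was -0.59 for ACLY KO replicate 4, -0.54 for ACSS2 KO replicate 1, and 0.67 and 0.62 for DKO1 replicates 1 and 3. Values without DKO1 replicate 4 or WT replicate 2 are given beside each comparison described whose call changed without them.

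Log2 fold changes below come from limma on log2(normalized count + 1), which understates the change of genes with low values, and a gene was called at an adjusted p under 0.05. In ACLY KO against WT 7 of the 36 tested members were higher and 12 lower, where 48.5% of all genes tested were called, 23.8% higher and 24.7% lower. In ACSS2 KO against WT 7 were higher and 11 lower, beside 26.0% of all genes (15.1% higher, 11% lower). In DKO1 against WT 9 were higher and 14 lower, beside 56.0% of all genes (27.9% higher, 28.1% lower). In DKO1 against ACLY KO 7 were higher and 9 lower, beside 27.9% (14.3% higher, 13.6% lower), and in DKO1 against ACSS2 KO 10 were higher and 16 lower, beside 53.7% (25.9% higher, 27.8% lower). The interaction compares the difference of DKO1 from ACLY KO with that of ACSS2 KO from WT. It was above 0 for 7 members and below 0 for 10, beside 27.1% of all genes (12.0% above, 15.1% below). With the stricter limits the study used, a log2 fold change beyond 1.5 in either direction at an adjusted p under 0.01, 3, 1, 3, 0, 3 and 1 members were called in these 6 tests, beside 8.80%, 2.42%, 9.84%, 2.06%, 11.3% and 4.61% of all genes. The median log2 fold change of the tested members was -0.043 for ACLY KO, -0.054 for ACSS2 KO and -0.044 for DKO1 against WT, beside -0.0067, 0.0013 and 0.0035 over all genes tested. In DKO1 against ACSS2 KO it was -0.17, beside 0.0057. These medians are taken over members that were called in both directions. The 3 knockouts were compared with the same WT libraries, so these 3 sets of values are not independent of each other.

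**Figure D1:**
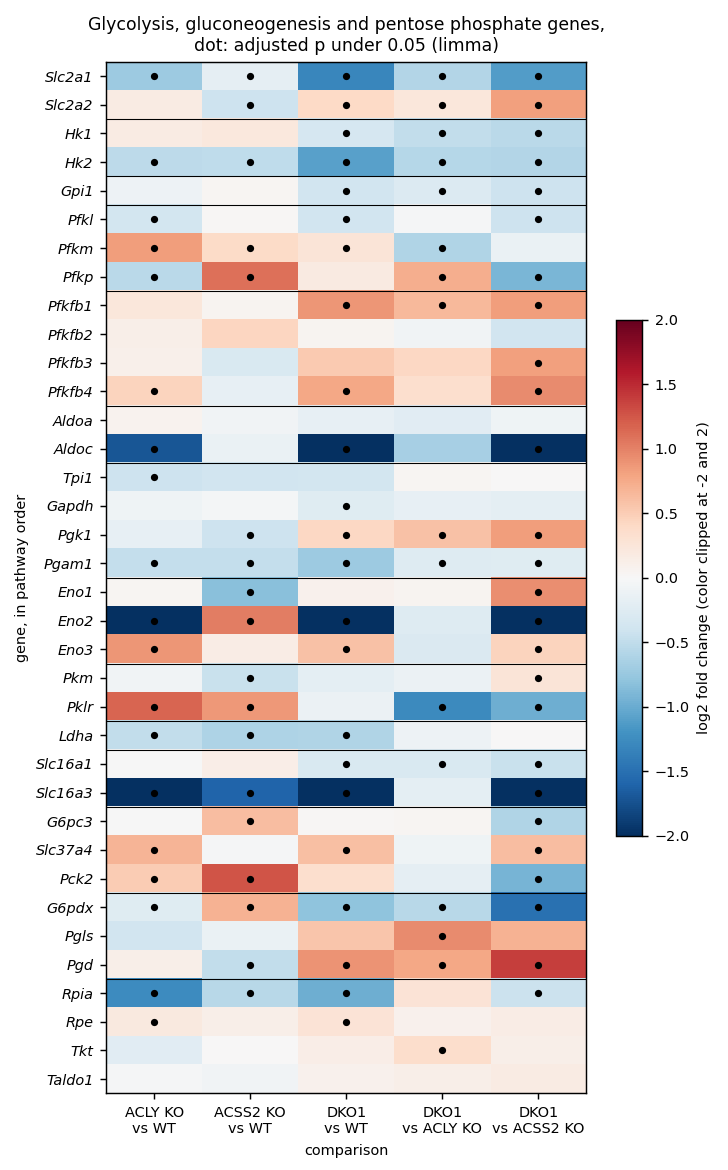
Log2 fold change of the 36 tested genes (rows, in pathway order, with lines between steps) in 5 comparisons (columns). Red is higher and blue lower in the first-named genotype, color is clipped at -2 and 2, and a dot marks an adjusted p under 0.05 (limma). Slc16a3 is at the blue end against WT in all 3 knockouts except for a paler shade in ACSS2 KO, and G6pdx and Pgd have opposite colors in the ACSS2 KO and DKO1 columns against WT.

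Called lower in all 3 knockouts were 6 members, beside 4.22% of all genes tested, namely the glucose transporter Slc2a1, hexokinase Hk2, phosphoglycerate mutase Pgam1, lactate dehydrogenase Ldha, the lactate exporter Slc16a3 and the pentose phosphate isomerase Rpia. Pfkm, the muscle-type phosphofructokinase, was the only 1 of the 36 that was higher in all 3, beside 4.34% of all genes. Another 6, namely Slc2a2, Pfkp, Pgk1, Eno2, G6pdx and Pgd, were higher in at least 1 knockout and lower in another, beside 9.50% of all genes. With all 14 libraries no call against WT was made in any knockout for 6, namely Pfkfb2, Pfkfb3, Aldoa, Pgls, Tkt and Taldo1, beside 29.4% of all genes. The 3 comparisons share their WT libraries, so these counts are only a description.

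The proximal promoters of genes that fell together are printed with matches to a single set of letters among those searched. RefSeq sequence of build GRCm38.p6 was used, from 250 bases before to 50 bases after the annotated start. ACGTG holds the core that hypoxia-inducible factors bind, and it was searched on both strands as ACGTG or CACGT, with overlap allowed with CACGTG, the E-box of MYC-type factors, which holds both. Of the 6 genes lower in all 3 knockouts 4 held a match, and these are shown, 5′ to 3′ along each gene's strand with every match in capitals.
Slc2a1, chr4:119108495-119108794, plus strand: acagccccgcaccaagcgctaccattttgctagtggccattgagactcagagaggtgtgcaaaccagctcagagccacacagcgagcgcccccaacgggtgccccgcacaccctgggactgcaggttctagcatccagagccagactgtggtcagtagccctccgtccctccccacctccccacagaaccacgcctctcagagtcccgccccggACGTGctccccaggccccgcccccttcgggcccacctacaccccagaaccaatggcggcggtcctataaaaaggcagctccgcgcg
Hk2, chr6:82774405-82774704, minus strand: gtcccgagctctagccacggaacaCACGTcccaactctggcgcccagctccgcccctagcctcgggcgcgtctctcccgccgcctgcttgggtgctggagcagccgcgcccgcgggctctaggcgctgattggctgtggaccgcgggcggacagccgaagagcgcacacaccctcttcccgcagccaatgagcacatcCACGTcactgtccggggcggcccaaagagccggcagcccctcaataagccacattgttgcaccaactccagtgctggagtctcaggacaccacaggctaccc
Pgam1, chr19:41911621-41911920, plus strand: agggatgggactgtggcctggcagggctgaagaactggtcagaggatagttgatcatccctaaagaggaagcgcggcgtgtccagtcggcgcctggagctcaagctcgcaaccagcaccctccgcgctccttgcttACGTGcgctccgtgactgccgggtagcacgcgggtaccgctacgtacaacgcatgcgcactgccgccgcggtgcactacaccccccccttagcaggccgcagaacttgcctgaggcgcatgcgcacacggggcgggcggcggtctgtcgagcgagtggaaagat
Slc16a3, chr11:120948817-120949116, plus strand: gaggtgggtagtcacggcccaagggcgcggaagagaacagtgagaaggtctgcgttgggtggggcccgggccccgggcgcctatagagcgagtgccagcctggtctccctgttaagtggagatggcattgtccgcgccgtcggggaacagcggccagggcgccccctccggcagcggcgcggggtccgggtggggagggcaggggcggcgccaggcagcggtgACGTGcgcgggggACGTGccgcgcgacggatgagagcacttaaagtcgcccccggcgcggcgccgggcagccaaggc
The Slc16a3 and Hk2 windows held 2 matches each, and the Slc2a1 window held 1. By the same single window per gene, a match was also held by 3 of the 6 members called in no knockout. So it was for 2 of the 6 members called in both directions and for Pfkm, the member higher in all 3 knockouts. Counting a gene if any of its annotated promoters held a match, 19 of all 43 members (44.2%) did, beside 21.8% of 27025 genes. Among the 36 tested members 17 (47.2%) did, beside 29.3% of 9980 tested genes. These shares are not like the counts above, which came from a single window per gene. Counting any annotated promoter, the CACGTG E-box was found for 16.3% of the members and 8.1% of all genes. Among the tested members it was 16.7%, beside 11.8% of the tested genes. For GGGCGG, the GC box, these shares were 69.8% and 38.2%, and 77.8% and 68.9%. For the CCAAT box they were 48.8% and 41.1%, and 47.2% and 43.5%. In the single windows, all of the 6 genes lower in all 3 knockouts except Ldha held GGGCGG. A match is only the presence of these letters, and the genes shown were picked after their values were known.

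Of the 2 glucose transporter genes among the members, Slc2a1, which encodes the widely expressed GLUT1, was by far the higher. Slc2a1 read 6940, 6723, 6203 and 6797 for WT, 4031, 3928, 4090 and 4127 for ACLY KO, 6030, 5830 and 5721 for ACSS2 KO, and 2573, 2680 and 2848 for DKO1 normalized counts. No library of one genotype overlapped with another, and the order was WT, ACSS2 KO, ACLY KO and DKO1 from high to low. Against WT it was 1.65-fold lower in ACLY KO (log2 fold change -0.72, SE 0.053, adjusted p = 1.6e-07) and 2.47-fold lower in DKO1 (log2 fold change -1.30, SE 0.057, adjusted p = 1.9e-09). DKO1 was also lower than ACLY KO, at a log2 fold change of -0.58 (SE 0.057, adjusted p = 1.1e-05). The small difference in ACSS2 KO, -0.18 (SE 0.057, adjusted p = 0.03), lost its call without WT replicates 1, 2 or 4 or ACSS2 KO replicates 1, 2 or 4 (adjusted p = 0.052 to 0.12).

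Slc2a2, the high-capacity GLUT2 of hepatocytes and beta cells, read 99.59, 97.41, 97.27 and 103.2 for WT, 114.7, 110.6, 110.8 and 111.4 for ACLY KO, 79.27, 73.42 and 70.15 for ACSS2 KO, and 129.4, 132.8 and 133 for DKO1. It was low throughout, with DKO1 highest and ACSS2 KO lowest, so it went the other way from Slc2a1 in DKO1 and the same way in ACSS2 KO. The log2 fold change was 0.40 (SE 0.077, adjusted p = 0.00061) in DKO1 and -0.42 (SE 0.077, adjusted p = 0.0013) in ACSS2 KO against WT, and 0.17 (adjusted p = 0.066) in ACLY KO. The rise in DKO1 over ACLY KO, 0.23 (adjusted p = 0.038), lost its call without ACLY KO replicates 1, 2, 3 or 4, ACSS2 KO replicate 2 or DKO1 replicates 1, 3 or 4 (adjusted p = 0.051 to 0.085). Per kilobase of transcript Slc2a2 made up 0.866% ± 0.036 (SD) of the pair in WT and 2.78% ± 0.1 in DKO1.

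Hexokinase, which traps glucose in the cell, was made of Hk1 and Hk2, while Hk3 was at 0 in 12 of 14 libraries and at most 1.454. Hk2, the inducible form of many tumors, read 3302, 2962, 3352 and 3460 for WT, 2393, 2313, 2305 and 2090 for ACLY KO, 2214, 2355 and 2286 for ACSS2 KO, and 1661, 1621 and 1334 for DKO1. All 10 knockout libraries were below all WT libraries, and DKO1 was lowest. The log2 fold change against WT was -0.52 (SE 0.078, adjusted p = 9.4e-05) in ACLY KO, -0.51 (SE 0.084, adjusted p = 0.00055) in ACSS2 KO and -1.09 (SE 0.084, adjusted p = 2.4e-07) in DKO1, and DKO1 was below ACLY KO, at -0.57 (SE 0.084, adjusted p = 3e-04). Tested genes within 5 Mb of Hk2 had a median of -0.33 over 69 genes in ACLY KO and -0.28 over 69 genes in DKO1.

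Hk1, the form of most adult tissues, read 2988, 2316, 2786 and 2977 for WT, 3145, 3108, 3143 and 2931 for ACLY KO, 3080, 3208 and 3255 for ACSS2 KO, and 2553, 2469 and 1665 for DKO1. The DKO1 libraries were below those of ACLY KO and ACSS2 KO, with replicate 4 the lowest of all. The difference from ACLY KO was -0.49 (SE 0.13, adjusted p = 0.014) and shrank to -0.29 without DKO1 replicate 4 (adjusted p = 0.02). Against WT, where the groups overlapped, it was -0.33 (adjusted p = 0.047) and lost its call without WT replicates 1, 3 or 4, ACLY KO replicates 1, 2, 3 or 4, ACSS2 KO replicates 1, 2 or 4 or DKO1 replicate 4 (adjusted p = 0.058 to 0.2). Per kilobase, Hk1 made up 54.7% ± 1.5 of hexokinase for WT, and 66% ± 0.62 for ACLY KO, 66.6% ± 0.51 for ACSS2 KO and 67.1% ± 2.6 for DKO1. The Hk2 to Hk1 ratio was lower in each knockout than in WT, with log2 differences of -0.68, -0.72 and -0.76, at p = 0.029 in each exact permutation test (two-sided), the smallest that 4 against 4 or 4 against 3 libraries allow.

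Glucose phosphate isomerase, Gpi1, whose product enters phosphofructokinase, read 8448, 8071, 7901 and 7944 for WT, 7448, 7563, 7666 and 7498 for ACLY KO, 8449, 8011 and 8507 for ACSS2 KO, and 6469, 6322 and 5915 for DKO1. DKO1 lay below every other library, at -0.38 (SE 0.053, adjusted p = 5.3e-05) against WT and -0.28 (SE 0.053, adjusted p = 0.0019) against ACLY KO. ACLY KO and ACSS2 KO were not called against WT, at -0.10 (adjusted p = 0.11) and 0.04 (adjusted p = 0.64), and the first passed without DKO1 replicate 4 (adjusted p = 0.04).

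Phosphofructokinase, the committing step of glycolysis, changed its isoform make-up in every knockout. Pfkl, the liver form, read 5063, 5011, 4390 and 4677 for WT, 3763, 3528, 3821 and 3834 for ACLY KO, 5050, 4727 and 4813 for ACSS2 KO, and 3569, 3618 and 3774 for DKO1. The 7 libraries without ACLY were lower than the 7 with it, at -0.36 (SE 0.058, adjusted p = 2e-04) in ACLY KO and -0.39 (SE 0.063, adjusted p = 0.00017) in DKO1 against WT, and ACSS2 KO differed from WT by 0.03 (adjusted p = 0.82). Pfkm, the muscle form, read 1391, 1484, 1435 and 1337 for WT, 2517, 2508, 2625 and 2487 for ACLY KO, 1854, 1815 and 1867 for ACSS2 KO, and 1695, 1653 and 1682 for DKO1. ACLY KO was highest and 1.8-fold higher than WT (log2 fold change 0.84, SE 0.048, adjusted p = 1.5e-08), with ACSS2 KO at 0.39 (SE 0.052, adjusted p = 0.00012) and DKO1 at 0.25 (SE 0.052, adjusted p = 0.0012). DKO1 was below ACLY KO, at -0.60 (SE 0.052, adjusted p = 3.8e-06).

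Pfkp, the platelet form that many tumors use, read 1876, 1736, 2016 and 1875 for WT, 1300, 1310, 1270 and 1259 for ACLY KO, 3911, 3886 and 4244 for ACSS2 KO, and 2409, 2337 and 1695 for DKO1. ACSS2 KO was 2.14-fold higher than WT (log2 fold change 1.10, SE 0.1, adjusted p = 6.9e-06), ACLY KO was lower (log2 fold change -0.54, SE 0.096, adjusted p = 0.00037), and the genotypes did not overlap in either comparison. DKO1 stood above ACLY KO (log2 fold change 0.72, SE 0.1, adjusted p = 0.00024) and read 0.18 (adjusted p = 0.16) against WT, where leaving out DKO1 replicate 4 gave 0.34 (adjusted p = 0.00036). Tested genes within 5 Mb of Pfkp on chromosome 13 had medians of the same sign in both comparisons with ACLY KO, -0.45 over 21 genes against WT and 0.53 over 21 genes for DKO1 against ACLY KO, but of 0.01 over 21 genes in ACSS2 KO. Their part in the Pfkp values was not tested.

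Per kilobase the WT enzyme pool was 57.6% ± 2.2 Pfkl, 22% ± 0.96 Pfkm and 20.4% ± 1.7 Pfkp. In ACLY KO Pfkm rose to 40.2% ± 0.71 and Pfkl stood at 45.7% ± 1, and in ACSS2 KO Pfkp rose to 33.2% ± 1.3 beside 44.8% ± 1.2 Pfkl. In DKO1 the pool was 47.2% ± 2.9 Pfkl, 28% ± 0.99 Pfkm and 24.8% ± 3.8 Pfkp, and its Pfkm and Pfkp shares lay between those of the single knockouts. Thus Pfkl lost share in each knockout, to Pfkm in ACLY KO and to Pfkp in ACSS2 KO.

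**Figure D2:**
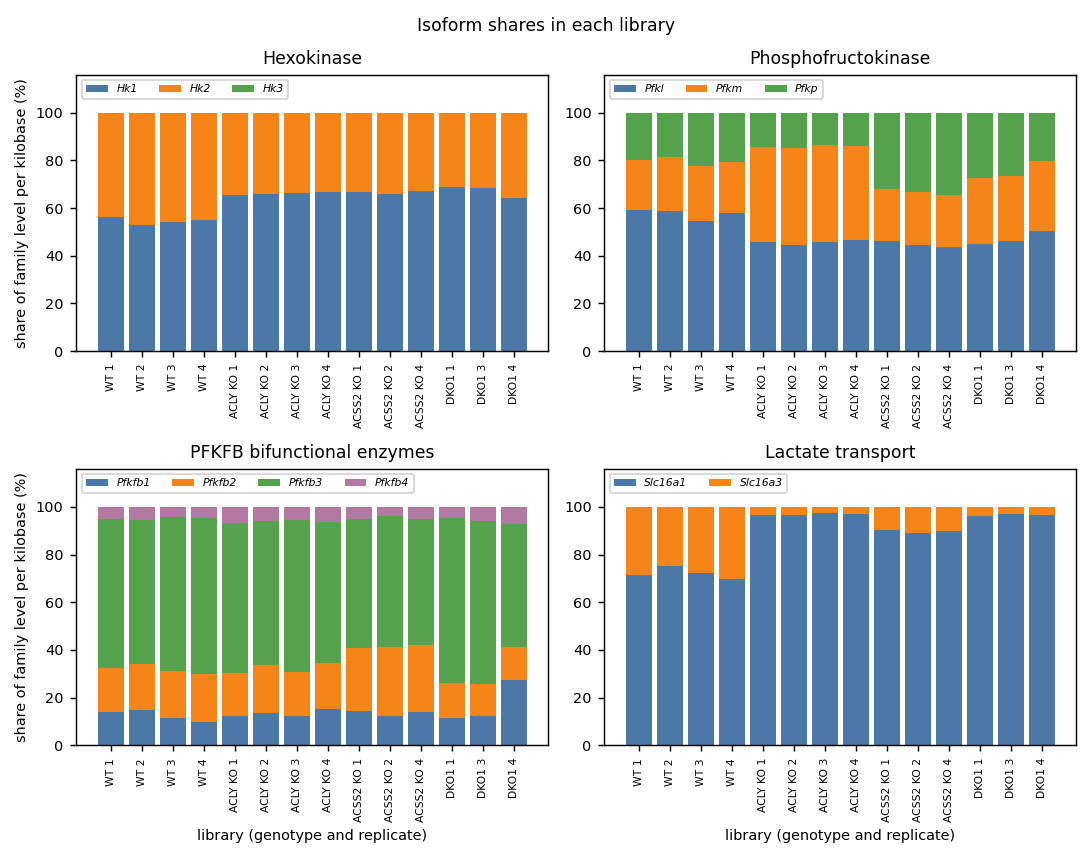
Share of each isoform in its family in each of the 14 libraries (bars, in percent of the summed normalized counts per kilobase of transcript) for hexokinase, phosphofructokinase, the PFKFB enzymes and the lactate transporters. Hk2 takes up less of the bar in every knockout library than in WT, Pfkm more in ACLY KO, Pfkp more in ACSS2 KO, and Slc16a3 falls from 27.7% in WT to 3.14% in ACLY KO.

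The 4 bifunctional PFKFB enzymes set the level of the sugar bisphosphate that activates phosphofructokinase. Pfkfb1, the liver form, read 109.5, 96.65, 92.72 and 84.04 for WT, 105.6, 111, 110.5 and 121.4 for ACLY KO, 102.6, 96.84 and 98.04 for ACSS2 KO, and 147.1, 166.9 and 224.2 for DKO1. DKO1 was above all other libraries, at 0.88 (SE 0.13, adjusted p = 9.9e-05) against WT and 0.65 (SE 0.13, adjusted p = 0.003) against ACLY KO. Genes within 5 Mb of it on the X chromosome had medians of 0.67 over 26 genes and 0.41 over 26 genes in the same comparisons. Pfkfb4, a form with kinase and phosphatase activity that hypoxia can induce, read 78.25, 72.38, 71.21 and 78.78 for WT, 114, 99.3, 96.19 and 100.9 for ACLY KO, 71.72, 59.05 and 70.92 for ACSS2 KO, and 119.1, 158.6 and 114.1 for DKO1. It was higher in ACLY KO (log2 fold change 0.44, SE 0.12, adjusted p = 0.0067) and in DKO1 (log2 fold change 0.77, SE 0.13, adjusted p = 0.00018), with no overlap with WT.

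Pfkfb3, the form with the strongest kinase activity, read 1309, 1043, 1384 and 1497 for WT, 1442, 1324, 1541 and 1275 for ACLY KO, 1020, 1143 and 997.6 for ACSS2 KO, and 2359, 2450 and 1119 for DKO1. DKO1 replicates 1 and 3 were above every other library, and replicate 4 lay inside the WT range. With all 3 the log2 fold change against WT was 0.52 (SE 0.22, adjusted p = 0.061). Leaving replicate 4 out gave 0.89 (adjusted p = 3.2e-05). Against ACLY KO the corresponding values were 0.42 (adjusted p = 0.18) and 0.79 without replicate 4 (adjusted p = 0.00031). Pfkfb2, the heart form, read 365.3, 319.6, 402.9 and 436.2 for WT, 397, 427.3, 430.3 and 397.7 for ACLY KO, 469.6, 565.8 and 504.6 for ACSS2 KO, and 469.2, 451.1 and 286 for DKO1, and was not called in ACLY KO (0.12, adjusted p = 0.51), ACSS2 KO (0.43, adjusted p = 0.058) or DKO1 (0.05, adjusted p = 0.79) against WT. Without DKO1 replicate 4 its log2 fold change against WT passed the threshold in ACSS2 KO, at 0.43 (adjusted p = 0.0033), and in DKO1, at 0.28 (adjusted p = 0.042). The ACSS2 KO value also passed without DKO1 replicate 1 (adjusted p = 0.043) or WT replicate 4 (adjusted p = 0.046).

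Aldolase splits the hexose bisphosphate into trioses. Aldoa, the ubiquitous form, read 23471, 24841, 21041 and 21490 for WT, 23210, 23613, 23470 and 25046 for ACLY KO, 22266, 21403 and 21212 for ACSS2 KO, and 18204, 19206 and 23946 for DKO1. It was not called in ACLY KO (0.07, adjusted p = 0.52), ACSS2 KO (-0.07, adjusted p = 0.66) or DKO1 (-0.16, adjusted p = 0.16) against WT, and without DKO1 replicate 4 the last value was -0.28 (adjusted p = 0.0038). The value in ACSS2 KO turned to 0.16 under quantile normalization. Aldoc, a form best known from brain, read 37.22, 34.82, 41.61 and 26.72 for WT, 7.07, 14.13, 12.84 and 7.447 for ACLY KO, 26.81, 32.21 and 36.47 for ACSS2 KO, and 7.153, 2.886 and 9.241 for DKO1. It was a trace next to Aldoa, but all 7 libraries without ACLY were below all 7 with it, at -1.71 (SE 0.31, adjusted p = 0.00047) in ACLY KO and -2.38 (SE 0.33, adjusted p = 5.2e-05) in DKO1 against WT, and ACSS2 KO read -0.13 (adjusted p = 0.83).

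The trunk enzymes from triose to phosphoglycerate were high in all libraries. Tpi1, triose phosphate isomerase, ranged from 13078 to 25245, and was lower in ACLY KO (log2 fold change -0.41, SE 0.14, adjusted p = 0.031), a call lost without WT replicates 1 or 2 or ACLY KO replicates 1, 2 or 3 (adjusted p = 0.063 to 0.09). Without DKO1 replicate 4 Tpi1 was also lower in ACSS2 KO, at -0.38 (adjusted p = 0.0074), and in DKO1, at -0.59 (adjusted p = 0.00042). Gapdh, which oxidizes glyceraldehyde phosphate, ranged from 31246 to 42602 and was called lower in DKO1 against WT (log2 fold change -0.24, SE 0.083, adjusted p = 0.024), a call lost without WT replicate 1 or DKO1 replicates 1 or 3 (adjusted p = 0.067 to 0.096). DKO1 was not called against ACLY KO (-0.16, adjusted p = 0.18) or ACSS2 KO (-0.20, adjusted p = 0.071), and both passed without DKO1 replicate 4, at -0.26 (adjusted p = 0.0098) and -0.3 (adjusted p = 0.0023). Of the 75-base windows of its transcript 80.31% also occur in other annotated genes, so its level also holds how such reads were assigned and is uncertain. The same share was 67.5% for Pgk1, 65.44% for Eno1 and 40.62% for Pgam1, and it was 0 for 23 of the 36 tested members.

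Pgk1, phosphoglycerate kinase, which makes the first ATP of the pathway, read 23389, 27987, 22623 and 22536 for WT, 20736, 21422, 20547 and 22843 for ACLY KO, 18837, 17602 and 17743 for ACSS2 KO, and 27197, 29471 and 41645 for DKO1. It went in opposite directions in the knockouts, at -0.41 (SE 0.13, adjusted p = 0.028) in ACSS2 KO and 0.42 (SE 0.13, adjusted p = 0.012) in DKO1 against WT, and DKO1 was above ACLY KO, at 0.59 (SE 0.13, adjusted p = 0.0038). Without DKO1 replicate 4, the highest library, the difference from WT was 0.24 (adjusted p = 0.029), and the ACSS2 KO call was lost without WT replicate 2 or ACSS2 KO replicates 1, 2 or 4 (adjusted p = 0.056 to 0.092). Genes within 5 Mb of Pgk1 on the X chromosome had medians of 0.52 over 34 genes in DKO1 against WT and 0.41 over 34 genes against ACLY KO.

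Pgam1, phosphoglycerate mutase, read 23021, 26398, 23482 and 23100 for WT, 16665, 17780, 17179 and 17755 for ACLY KO, 18292, 17173 and 16503 for ACSS2 KO, and 13416, 13829 and 16506 for DKO1. All knockout libraries were below all WT libraries, at -0.47 (SE 0.075, adjusted p = 0.00017) in ACLY KO, -0.47 (SE 0.081, adjusted p = 0.00081) in ACSS2 KO and -0.72 (SE 0.081, adjusted p = 6.8e-06) in DKO1. DKO1 was below ACLY KO, at -0.26 (adjusted p = 0.032), a call lost without ACLY KO replicates 2, 3 or 4 or DKO1 replicates 1 or 3 (adjusted p = 0.063 to 0.1). Its neighbours on chromosome 19 had medians of -0.40 over 96 genes in ACLY KO, -0.03 over 96 genes in ACSS2 KO and -0.57 over 96 genes in DKO1. Over the 452 other tested genes of that chromosome the medians were -0.38, -0.04 and -0.54 in the same order. Pgam2, the muscle form, did not exceed 5.846 normalized counts in any library.

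Enolase makes phosphoenolpyruvate. Eno1, the ubiquitous form, read 19276, 13061, 16689 and 19013 for WT, 19768, 15161, 16067 and 18536 for ACLY KO, 9311, 7791 and 11435 for ACSS2 KO, and 18287, 25331 and 12470 for DKO1. ACSS2 KO was lowest, at -0.84 (SE 0.22, adjusted p = 0.011) against WT, a call lost without ACSS2 KO replicate 2 (adjusted p = 0.063). Its near-identical copy Eno1b is counted apart in the table, at a mean of 49180 in WT and 34970 in ACSS2 KO, so reads of both may have been split and the Eno1 values are uncertain.

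Eno3, the muscle form, read 1032, 1171, 907.8 and 858.7 for WT, 1721, 1862, 1769 and 1886 for ACLY KO, 1144, 1017 and 1112 for ACSS2 KO, and 1195, 1304 and 2055 for DKO1. It was higher in ACLY KO (log2 fold change 0.88, SE 0.15, adjusted p = 0.00024) and in DKO1 (log2 fold change 0.58, SE 0.16, adjusted p = 0.0071), where DKO1 replicate 4 raised the value, which was 0.34 without it (adjusted p = 0.013). Without that library DKO1 was also below ACLY KO, at -0.53 (adjusted p = 0.0018), beside -0.29 (adjusted p = 0.19) with it. Eno2, the neuronal form, read 24.89, 22.19, 20.08 and 18.3 for WT, 6.097, 2.952, 6.24 and 3.429 for ACLY KO, 43.91, 47.72 and 41.65 for ACSS2 KO, and 4.289, 1.996 and 5.092 for DKO1. It was rare, with ACSS2 KO above WT (log2 fold change 1.03, SE 0.29, adjusted p = 0.02) and both ACLY KO (log2 fold change -2.02, SE 0.27, adjusted p = 3.8e-05) and DKO1 (log2 fold change -2.28, SE 0.29, adjusted p = 2.3e-05) below it, with no overlap with WT. The ACSS2 KO call was lost without WT replicate 4 or ACSS2 KO replicates 1, 2 or 4 (adjusted p = 0.05 to 0.074).

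Pyruvate kinase, the last step, was Pkm in nearly all transcripts, and gene-level values do not separate its M1 and M2 splice forms. Pkm read 66153, 73481, 61835 and 63817 for WT, 61304, 63452, 62744 and 65430 for ACLY KO, 50065, 48669 and 47584 for ACSS2 KO, and 54264, 54893 and 66060 for DKO1. It was lower in ACSS2 KO (log2 fold change -0.44, SE 0.083, adjusted p = 0.0016) and not called in ACLY KO (-0.07, adjusted p = 0.51) or DKO1 (-0.19, adjusted p = 0.074). Without DKO1 replicate 4 the last value was -0.28 (adjusted p = 0.004). Pklr, the liver and red cell form that carbohydrate feeding induces, read 50.27, 38.84, 55.45 and 49.05 for WT, 97.01, 105.5, 126.3 and 111.7 for ACLY KO, 98.36, 81.74 and 85.23 for ACSS2 KO, and 52.54, 44.06 and 37.92 for DKO1. Each single knockout stood above WT with no overlap, 2.26-fold higher in ACLY KO (log2 fold change 1.17, SE 0.14, adjusted p = 1.3e-05) and 1.82-fold higher in ACSS2 KO (log2 fold change 0.86, SE 0.15, adjusted p = 0.00089). DKO1 overlapped with WT (-0.11, adjusted p = 0.56) and was below ACLY KO, at -1.28 (SE 0.15, adjusted p = 4.7e-05). Per kilobase Pklr was 0.0618% ± 0.013 of pyruvate kinase in WT and 0.146% ± 0.016 in ACLY KO.

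Ldha, which turns pyruvate into lactate and regenerates NAD+, read 23553, 28538, 22103 and 22170 for WT, 16730, 17155, 16059 and 18023 for ACLY KO, 16701, 15421 and 15013 for ACSS2 KO, and 13294, 14215 and 20997 for DKO1. It was lower in ACLY KO (log2 fold change -0.50, SE 0.13, adjusted p = 0.0059), ACSS2 KO (log2 fold change -0.61, SE 0.14, adjusted p = 0.0054) and DKO1 (log2 fold change -0.60, SE 0.14, adjusted p = 0.0025), with no overlap with WT in any of them. DKO1 against ACLY KO was -0.10 (adjusted p = 0.62), which became -0.3 when DKO1 replicate 4 was left out (adjusted p = 0.027). Ldhb, the heart form that favors lactate use, did not exceed 8.995 normalized counts.

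Lactate export held the largest changes among the tested members in ACLY KO and in DKO1. Slc16a3, at chr11:120948480-120960868 in GRCm38, encodes MCT4, the low-affinity transporter of highly glycolytic cells. It read 1628, 1577, 1562 and 1766 for WT, 152.2, 138.3, 123.2 and 136.6 for ACLY KO, 500.9, 565.8 and 548.6 for ACSS2 KO, and 124.9, 110.1 and 127 for DKO1. The WT libraries were at least 1562 and no ACLY KO or DKO1 library exceeded 152.2, with ACSS2 KO in between. Slc16a3 was 11.8-fold lower than WT in ACLY KO (log2 fold change -3.56, SE 0.08, adjusted p = 9.8e-12), 3.03-fold lower in ACSS2 KO (log2 fold change -1.60, SE 0.087, adjusted p = 8.1e-08) and 13.4-fold lower in DKO1 (log2 fold change -3.75, SE 0.087, adjusted p = 1.6e-11). DKO1 and ACLY KO overlapped (-0.19, adjusted p = 0.13). Tested genes within 5 Mb of it had medians of -0.00 over 117 genes in ACLY KO, 0.14 over 117 genes in ACSS2 KO and 0.40 over 117 genes in DKO1.

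Slc16a1, the widely expressed MCT1 that moves lactate in both directions, read 4187, 4873, 4200 and 4181 for WT, 4450, 4193, 4454 and 4236 for ACLY KO, 4864, 4643 and 4923 for ACSS2 KO, and 3227, 3456 and 3920 for DKO1. DKO1 was below all other libraries, at -0.30 (SE 0.076, adjusted p = 0.0043) against WT and -0.30 (SE 0.076, adjusted p = 0.011) against ACLY KO, whereas ACLY KO and WT differed by -0.01 (adjusted p = 0.95). Per kilobase, Slc16a3 made up 27.7% ± 2.2 of the pair for WT, 3.14% ± 0.27 for ACLY KO, 10.3% ± 0.78 for ACSS2 KO and 3.38% ± 0.36 for DKO1. Among other genes, Emb, which encodes the MCT chaperone embigin, went from 60.63 ± 8.29 in WT to 20.71 ± 5.03 in ACLY KO (log2 fold change -1.53, SE 0.2, adjusted p = 3.2e-05) and 16.79 ± 4.59 in DKO1 (log2 fold change -1.82, SE 0.22, adjusted p = 1.2e-05), but to 107.4 ± 13 in ACSS2 KO (log2 fold change 0.82, SE 0.22, adjusted p = 0.013), where Slc16a3 was lower.

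**Figure D3:**
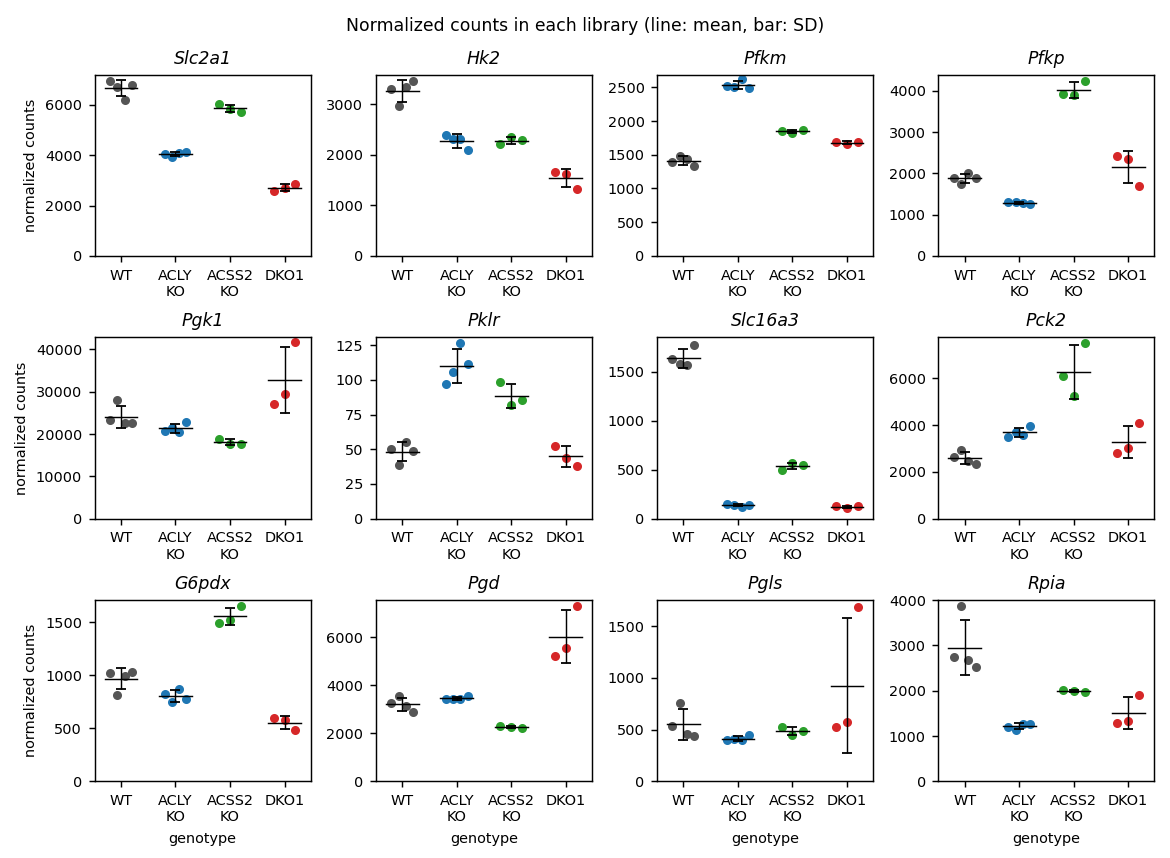
Normalized counts (y axis, from 0) of 12 genes in each library, grouped by genotype. Points are libraries, the line is the mean and the bar the SD. Slc16a3 lies at 1562 to 1766 in WT and at or below 152.2 in ACLY KO and DKO1, and DKO1 replicate 4 lies apart for Pgls at 1682.

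Most gluconeogenic genes were at or near 0 in every library. Pck1, the cytosolic phosphoenolpyruvate carboxykinase, was at 0 in 13 of 14 libraries, G6pc, the liver glucose phosphatase, was also at 0 in 13, and neither Fbp1 nor Fbp2, the fructose bisphosphatases, exceeded 3.488. The expressed members were Pck2, G6pc3 and Slc37a4. Pck2, the mitochondrial carboxykinase, read 2635, 2949, 2469 and 2349 for WT, 3505, 3695, 3597 and 3951 for ACLY KO, 6087, 5230 and 7499 for ACSS2 KO, and 2801, 3009 and 4072 for DKO1. ACSS2 KO was 2.39-fold higher than WT (log2 fold change 1.26, SE 0.14, adjusted p = 2.4e-05) and ACLY KO 1.42-fold higher (log2 fold change 0.51, SE 0.13, adjusted p = 0.0051), while DKO1 overlapped with WT (0.33, adjusted p = 0.061). The last value passed without WT replicate 2, ACSS2 KO replicates 2 or 4 or DKO1 replicate 1 (adjusted p = 0.025 to 0.049), and DKO1 was below ACLY KO without DKO1 replicate 4, at -0.34 (adjusted p = 0.044), beside -0.18 (adjusted p = 0.36) with it.

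G6pc3, the ubiquitous glucose phosphatase, read 305.8, 302, 285.7 and 300.2 for WT, 296.5, 291.1, 301.7 and 292.4 for ACLY KO, 463, 433.1 and 487.3 for ACSS2 KO, and 299.7, 282.7 and 327.5 for DKO1. It was higher in ACSS2 KO alone of the 3 knockouts (log2 fold change 0.62, SE 0.069, adjusted p = 2.4e-05), beside -0.01 (adjusted p = 0.88) in ACLY KO and 0.02 (adjusted p = 0.81) in DKO1. Slc37a4, which carries glucose phosphate into the endoplasmic reticulum, read 238.3, 240.2, 176.4 and 187.1 for WT, 318.9, 335.4, 327.7 and 356.5 for ACLY KO, 217.4, 211.4 and 190.6 for ACSS2 KO, and 292.9, 283.2 and 384.2 for DKO1. It was higher in both lines without ACLY, at 0.68 (SE 0.12, adjusted p = 0.00042) in ACLY KO and 0.60 (SE 0.13, adjusted p = 0.0017) in DKO1, and at -0.02 (adjusted p = 0.95) in ACSS2 KO.

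The oxidative pentose phosphate branch makes NADPH at 2 dehydrogenases with a lactonase between them, and these dehydrogenases moved apart. G6pdx, the entry enzyme, at chrX:74409483-74429194, read 1016, 817.6, 994.6 and 1029 for WT, 826.9, 748.3, 870.6 and 777.9 for ACLY KO, 1493, 1523 and 1648 for ACSS2 KO, and 596.1, 578.6 and 480.1 for DKO1. It was highest in ACSS2 KO (log2 fold change 0.69, SE 0.099, adjusted p = 2e-04) and lowest in DKO1 (log2 fold change -0.81, SE 0.099, adjusted p = 1.6e-05), where it was also below ACLY KO (log2 fold change -0.55, SE 0.099, adjusted p = 0.0012). The lower value in ACLY KO, -0.25 (adjusted p = 0.035), lost its call without WT replicates 1, 3 or 4 or ACLY KO replicates 1, 2 or 4 (adjusted p = 0.054 to 0.099). Pgd, the second dehydrogenase, at chr4:149149991-149166771, read 3258, 3540, 3133 and 2912 for WT, 3426, 3420, 3453 and 3548 for ACLY KO, 2318, 2271 and 2247 for ACSS2 KO, and 5240, 5545 and 7299 for DKO1. It had the reverse order, lowest in ACSS2 KO (log2 fold change -0.49, SE 0.099, adjusted p = 0.0025) and highest in DKO1 (log2 fold change 0.90, SE 0.099, adjusted p = 6.3e-06), where it was also above ACLY KO (log2 fold change 0.78, SE 0.099, adjusted p = 8.7e-05). ACLY KO against WT was at 0.11 (adjusted p = 0.34).

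The log2 ratio of Pgd to G6pdx normalized counts was 1.5 to 2.11 for WT, 1.99 to 2.19 for ACLY KO, 0.45 to 0.63 for ACSS2 KO and 3.14 to 3.93 for DKO1. ACSS2 KO and DKO1 therefore lay on either side of the other libraries with no overlap. Per kilobase, Pgd was 3.38 to 5.18 times G6pdx in WT, 1.63 to 1.86 times in ACSS2 KO and 10.5 to 18.2 times in DKO1. This ratio was chosen after the values were seen and was not tested. Genes within 5 Mb of Pgd on chromosome 4 had medians of 0.53 over 88 genes in DKO1 and -0.08 over 88 genes in ACSS2 KO against WT. Those around G6pdx had medians of -0.00 over 58 genes and 0.07 over 58 genes.

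**Figure D4:**
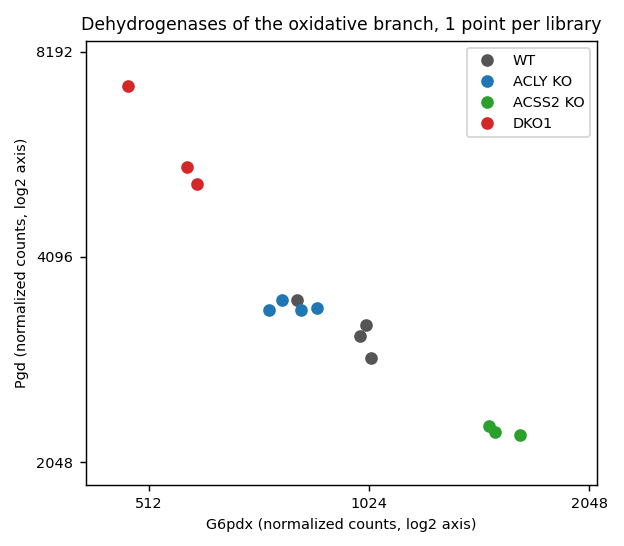
Pgd (y axis) against G6pdx (x axis) in normalized counts, both on log2 axes, with 1 point per library colored by genotype. The 3 DKO1 libraries lie at top left with Pgd at 5240 to 7299, the 3 ACSS2 KO libraries at bottom right with Pgd at 2247 to 2318, and WT and ACLY KO between.

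Pgls, the lactonase, read 533.5, 762.8, 462.7 and 443.8 for WT, 398, 410.3, 397.7 and 452 for ACLY KO, 527.7, 452.6 and 489.1 for ACSS2 KO, and 522.4, 573.5 and 1682 for DKO1. DKO1 replicate 4 stood alone, and the other DKO1 libraries lay inside the WT range. The rise over ACLY KO, 0.94 (SE 0.32, adjusted p = 0.044), was 0.40 without that library (adjusted p = 0.087). The call was lost without WT replicates 1, 3 or 4, ACLY KO replicates 1, 2, 3 or 4, ACSS2 KO replicates 1, 2 or 4 or DKO1 replicate 4 (adjusted p = 0.052 to 0.088). In DKO1 against ACLY KO the 106 tested genes within 5 Mb of Pgls had a median of 0.45, and their part was not tested. Against WT Pgls read -0.38 (adjusted p = 0.32) in ACLY KO, which passed without DKO1 replicate 4 (adjusted p = 0.029), and 0.56 (adjusted p = 0.15) in DKO1, which passed without DKO1 replicate 1 (adjusted p = 0.038). Its transcript is the shortest of the tested members, at 0.893 kb. All 12 tested members under 2 kb were higher in DKO1 replicate 4 than in the mean of replicates 1 and 3, with a median log2 difference of 0.56, and of the 24 longer ones 14 were, with a median of 0.05.

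**Figure D5:**
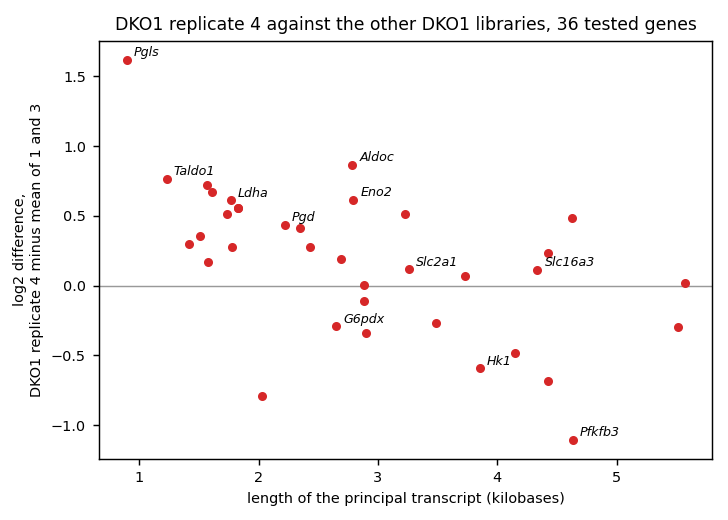
Log2 difference of DKO1 replicate 4 from the mean of DKO1 replicates 1 and 3 (y axis) against transcript length in kilobases (x axis) for the 36 tested genes, each a point. All genes under 2 kb lie above 0, Pgls highest and Pfkfb3 lowest of all, while Slc16a3 and Slc2a1 lie near 0.

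In the non-oxidative branch, which links pentoses back to glycolysis, Rpia, the isomerase that forms ribose phosphate, was called lower in all 3 knockouts. Rpia read 2746, 3864, 2670 and 2530 for WT, 1205, 1139, 1266 and 1266 for ACLY KO, 2009, 1992 and 1979 for ACSS2 KO, and 1281, 1324 and 1914 for DKO1. WT was above all other libraries, and WT replicate 2 was the highest. The log2 fold change was -1.26 (SE 0.14, adjusted p = 7e-06) in ACLY KO, -0.55 (SE 0.15, adjusted p = 0.017) in ACSS2 KO and -0.97 (SE 0.15, adjusted p = 0.00012) in DKO1. The ACSS2 KO call was lost without ACSS2 KO replicates 2 or 4 (adjusted p = 0.052 to 0.058). Genes within 5 Mb on chromosome 6 had medians of -0.48 over 36 genes, -0.08 over 36 genes and -0.45 over 36 genes in the same order.

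Tkt, transketolase, read 11359, 12347, 10331 and 10579 for WT, 9625, 9187, 9580 and 9819 for ACLY KO, 11450, 11037 and 11053 for ACSS2 KO, and 10326, 11327 and 15398 for DKO1. It was not called against WT in ACLY KO (-0.22, adjusted p = 0.097), ACSS2 KO (0.01, adjusted p = 0.98) or DKO1 (0.13, adjusted p = 0.35), and the first passed without DKO1 replicate 4 (adjusted p = 0.0047). The rise in DKO1 over ACLY KO, 0.35 (adjusted p = 0.033), was 0.18 without DKO1 replicate 4, and its call was lost without ACLY KO replicates 1, 2, 3 or 4 or DKO1 replicate 4 (adjusted p = 0.054 to 0.081). Rpe, the epimerase, ranged from 1504 to 2085 and was slightly higher in ACLY KO (0.19, adjusted p = 0.015) and DKO1 (0.27, adjusted p = 0.0026), the first lost without WT replicate 4 or ACLY KO replicate 4 (adjusted p = 0.051). Taldo1, transaldolase, ranged from 2569 to 4677 with its highest value in DKO1 replicate 4 and was called in none of these comparisons.

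Other genes that supply NADPH were mixed. Of 16 listed 15 were tested, and in DKO1 against ACLY KO 4 were higher and 5 lower (26.7% and 33.3%, beside 14.3% and 13.6% of all genes). In ACLY KO against WT 2 were higher and 4 lower (13.3% and 26.7%, beside 23.8% and 24.7%), and in DKO1 against WT 4 were higher and 7 lower (26.7% and 46.7%, beside 27.9% and 28.1%). Me1, the cytosolic malic enzyme, was at 8115 ± 417 for WT, 7927 ± 143 for ACLY KO, 7222 ± 140 for ACSS2 KO and 11200 ± 262 for DKO1, a log2 fold change of 0.50 over ACLY KO (SE 0.054, adjusted p = 2.4e-05). Idh1, the cytosolic isocitrate dehydrogenase, was at 1165 ± 51.3 for WT, 1093 ± 94 for ACLY KO, 1212 ± 86.9 for ACSS2 KO and 1814 ± 135 for DKO1, 0.73 over ACLY KO (SE 0.081, adjusted p = 3e-05). Among those lower in DKO1 against WT, Mthfd1, a cytosolic folate enzyme, read -0.47 (SE 0.053, adjusted p = 7.1e-06) and Glud1, glutamate dehydrogenase, -0.20 (SE 0.051, adjusted p = 0.0053). H6pd, the dehydrogenase of the endoplasmic reticulum, was not called in DKO1 against ACLY KO (-0.02, SE 0.18, adjusted p = 0.95). Aldh1l2, a mitochondrial folate enzyme that makes NADPH, went from 104.2 ± 17.5 in WT to 28.06 ± 4.85 in ACLY KO (-1.86, SE 0.21, adjusted p = 8e-06), and its mean was 337.7 in ACSS2 KO and 31.51 in DKO1. Nadk2, the mitochondrial NAD kinase, fell from ACLY KO to DKO1 (-0.51, SE 0.079, adjusted p = 0.00038).

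Of 12 isoform ratios whose members were all expressed, 7 differed between the 7 libraries without ACLY and the 7 with it in an exact two-sided permutation test, and 6 after adjustment over the 12. The ratios that fell were Slc16a3 to Slc16a1, with a log2 difference of -2.76, Eno2 to Eno1, with -2.99, and Aldoc to Aldoa, with -1.94. Those that rose were Slc2a2 to Slc2a1, with 1.34, and Pfkm to Pfkl, with 0.80. All 5 had an exact permutation p = 0.00058 (adjusted p = 0.0014), the smallest that 7 against 7 allows, and the libraries did not overlap. In the libraries without ACLY, Eno2 did not exceed 6.24 and Aldoc did not exceed 14.13 normalized counts, and the Eno1 values are uncertain. The sizes of these ratio differences are therefore uncertain too. Pfkfb2 to Pfkfb1 was lower, with -0.58 (exact permutation p = 0.015, adjusted p = 0.030), and with -0.38 without DKO1 replicate 4 (exact permutation p = 0.034). DKO1 read -0.72 against ACLY KO (exact permutation p = 0.029), while ACLY KO read -0.11 against WT (exact permutation p = 0.6). Hk2 to Hk1 did not pass the adjustment (exact permutation p = 0.038, adjusted p = 0.065). The ratios Pfkp to Pfkl (p = 0.26), Pfkfb3 to Pfkfb1 (p = 0.82), Pfkfb4 to Pfkfb3 (p = 0.12), Eno3 to Eno1 (p = 0.41) and Pklr to Pkm (p = 0.62) did not pass the same exact permutation test. Each group of 7 pools 2 lines, and these can differ from each other, as ACSS2 KO did from WT for Slc16a3 and Eno2 and DKO1 from ACLY KO for Pfkm and for Pfkfb2 to Pfkfb1. The permutation took libraries, not lines, as its units, and DKO1 was itself made from ACLY KO. Its p-values therefore do not measure the spread between lines, and ACLY loss and clone cannot be told apart.

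Genes of the pathway outside the 43 were described from a list of 45, of which 25 were tested, with 9 higher and 5 lower in ACLY KO (36% and 20%, beside 23.8% and 24.7% of all genes) and 8 higher and 6 lower in DKO1 against WT (32% and 24%, beside 27.9% and 28.1%). Hkdc1, a hexokinase-like enzyme, went from 43.34 ± 8.16 in WT to 120 ± 18.2 in ACLY KO (1.45, SE 0.18, adjusted p = 2.2e-05), with a mean of 56.61 in ACSS2 KO and 90.54 in DKO1. Bpgm, which makes bisphosphoglycerate, went from 538.8 ± 42.8 to 330.3 ± 9.99 (-0.70, SE 0.089, adjusted p = 2.4e-05), with 535.5 in ACSS2 KO and 446.8 in DKO1. The ribose phosphate kinases moved apart in DKO1 against ACLY KO, with Prps2 at -0.77 (SE 0.09, adjusted p = 4.5e-05) and Prps1 at 0.55 (SE 0.074, adjusted p = 0.00015).

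Of 44 regulators of glycolysis and gluconeogenesis 39 were tested, and 4 were higher and 15 lower in ACLY KO against WT (10.3% and 38.5%, beside 23.8% and 24.7% of all genes). In ACSS2 KO 8 were higher and 6 lower (20.5% and 15.4%, beside 15.1% and 11% of all genes). In DKO1 6 were higher and 18 lower (15.4% and 46.2%, beside 27.9% and 28.1%). Txnip, an arrestin that glucose induces and that restrains glucose uptake, was at 1871 ± 54.6 in WT and 923.4 ± 66 in ACLY KO (-1.02, SE 0.061, adjusted p = 2.6e-08), 1623 ± 72.4 in ACSS2 KO and 778.9 ± 30.4 in DKO1. Irs1, an adaptor of the insulin receptor, went from 251.1 ± 37.2 to 29.62 ± 4.85 (-3.04, SE 0.16, adjusted p = 7.6e-09), with 277.1 ± 27.1 in ACSS2 KO and 54.21 ± 11.6 in DKO1. Ppargc1a, a coactivator of mitochondrial and gluconeogenic genes, went from 209.6 ± 7.62 to 708.4 ± 58.2 (1.75, SE 0.13, adjusted p = 2.1e-07), and was also higher in ACSS2 KO, at 726.6 ± 31.8 (1.79, SE 0.14, adjusted p = 1.7e-06), and in DKO1, at 481.7 ± 125 (1.16, SE 0.14, adjusted p = 1.7e-05). Pdk3, a kinase that shuts pyruvate dehydrogenase, stood below ACLY KO in DKO1 (-0.78, SE 0.086, adjusted p = 2.9e-05), and so was Mycn (-1.15, SE 0.14, adjusted p = 6.8e-05).

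Of 25 hypoxia response genes outside glycolysis 24 were tested, with 3 higher and 11 lower in ACLY KO against WT (12.5% and 45.8%, beside 23.8% and 24.7% of all genes). In ACSS2 KO 10 were higher and 4 lower (41.7% and 16.7%, beside 15.1% and 11% of all genes). In DKO1 4 were higher and 10 lower (16.7% and 41.7%, beside 27.9% and 28.1%). Ak4, a mitochondrial adenylate kinase, went from 251.1 ± 37.1 in WT to 26.74 ± 8.29 in ACLY KO (-3.23, SE 0.22, adjusted p = 7e-08), with 156.7 ± 3.98 in ACSS2 KO and 25.29 ± 5.49 in DKO1. Ndrg1 went from 3138 ± 186 to 5838 ± 300 (0.90, SE 0.06, adjusted p = 7e-08), with 4726 ± 263 in ACSS2 KO and 7706 ± 27.1 in DKO1. The median log2 fold change of the list was -0.21 for ACLY KO, 0.11 for ACSS2 KO and -0.19 for DKO1, beside -0.0067, 0.0013 and 0.0035 over all genes.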

How the data were processed

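RNA-seq was done on 14 libraries of 4 cell lines. Per the labels and the study's methods, the authors mapped single-end reads from a poly(A)-selected, strand-marking library with STAR to GRCm38 (mm10), estimated counts per gene and divided them by normalization factors with an app that runs DESeq2 (version 1.0.1 as named in the submitters' processing notes). The deposited values are this signal, normalized counts that are not whole, so whole reads could not be recovered. The smallest steps in each library put the depth near 19169815 to 33531545 reads.

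Values were tested with limma 3.58.1 (R 4.3.3, intensity trend) on log2(value + 1), with a coefficient for each genotype over all 14 libraries, for the 12711 genes whose mean reached 10. P-values were adjusted by the Benjamini-Hochberg method over these genes. Isoform ratios, log2((A + 1)/(B + 1)), were tested by exact two-sided permutation. The fit was run on simulated data with known fold changes. These were drawn without a transcript length trend, so they do not test calls under such a trend.

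Gene positions and transcript lengths came from GENCODE release M21 of GRCm38 and promoters from RefSeq GRCm38.p6, which held all 43. The 43 genes, the 4 other lists, the ratios and the alternatives were chosen with earlier results of these data known. Values in every library were given for members with an absolute log2 fold change of at least 1 in ACLY KO or DKO1, for those called between DKO1 and ACLY KO, for the oxidative branch and for tested isoform pairs, and values of G6pc3, Pck2 and Slc37a4 (gluconeogenesis) and Ldha were added after they were seen. Other lists gave the genes with the smallest adjusted p.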

Additional observations from a re-analysis of the deposited data

Results flagged for a closer look

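Among 72 groups of 4 libraries checked, 7 had a library far from the other 3, where chance gives about 1 in 20 for independent groups. The groups are genes in the same WT and ACLY KO libraries and are not independent, so that rate does not apply to the count. WT replicate 2 was the library set apart in 5 of the 7, with Pgk1 at 27990, Pgam1 at 26400, Slc16a1 at 4873, G6pdx at 817.6 and Rpia at 3864 normalized counts. Its deviation followed transcript length (Spearman rho -0.61), as did those of other libraries, up to -0.7 in DKO1 replicate 4. The others were ACLY KO replicate 4 for Tpi1, at 16220, and ACLY KO replicate 1 for Gapdh, at 35820. Among these genes the call in ACLY KO against WT was lost without WT replicate 2 for Tpi1.

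The difference of DKO1 from ACLY KO was unlike that of ACSS2 KO from WT for 17 of the 36 tested members, where 27.1% of all genes tested were called. Of these 7 were higher and 10 lower (limma interaction, adjusted p under 0.05). ACSS2 KO and DKO1 are 1 clone each, so ACSS2 loss and clone cannot be told apart here. Pklr went up in ACSS2 KO against WT and down in DKO1 against ACLY KO, a log2 interaction of -2.15. G6pdx at -1.24 and Pfkm at -0.98 had the same pattern, and Pck2 at -1.44, Eno2 at -1.28 and G6pc3 at -0.59 rose in ACSS2 KO and were not called in DKO1 against ACLY KO. Hk1 (-0.70), Slc16a1 (-0.44), Slc2a1 (-0.40) and Gpi1 (-0.32) were lower in DKO1 than the single knockouts add up to. Interactions above 0 were those of Slc16a3 at 1.41, Pgd at 1.28, Pgk1 at 1.0, Eno1 at 0.89, Rpia at 0.83, Slc2a2 at 0.65 and Pfkfb1 at 0.60. For Slc16a3 and Rpia the level fell in ACSS2 KO and was not called between DKO1 and ACLY KO, where it was already low. For Pgd, Pgk1 and Slc2a2 it fell in ACSS2 KO and rose in DKO1 over ACLY KO. The interactions of Pfkfb1, Eno1 and Eno2 lost their calls without 8, 11 and 9 of the 14 libraries, each left out in turn.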

How the results depend on the processing

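Of 216 tests of a member in a comparison or interaction 119 were called, and 98 of these remained called with each of the 14 libraries left out in turn. Leaving out DKO1 replicate 4 lost 6 calls and added 29, more than for any other library. Called members ranged over these fits from 17 to 23 in ACLY KO, 13 to 22 in ACSS2 KO and 21 to 28 in DKO1 against WT, from 12 to 21 and 22 to 27 in DKO1 against ACLY KO and ACSS2 KO, and from 14 to 23 for the interaction, and isoform ratios from 6 to 7. With the study's limits (absolute log2 fold change over 1.5, adjusted p under 0.01) the 6 counts were 3, 1, 3, 0, 3 and 1, which follows from the stricter limits. DKO1 against ACLY KO had 25 calls without both WT replicate 2 and DKO1 replicate 4 (chosen after seeing the data), and 10 with only its own groups, and the interaction had 26 under a transcript length correction. The cause was not tested. Under at least 1 alternative the sign changed in 44 of the 216 tests. In 35 of these neither the fit with all libraries nor a fit with the changed sign gave a call. The value with all libraries was at most 0.26 in size. Some of those 35 were called in another fit, such as Ldha in DKO1 against ACLY KO without DKO1 replicate 4, with the sign unchanged. In the other 9 it turned for Hk2 in the interaction (0.18), Tpi1 (-0.2) and Taldo1 in DKO1 (-0.22 against WT, -0.12 against ACLY KO, -0.17 against ACSS2 KO) under the length correction, for Aldoa in ACSS2 KO (0.16) and Pkm in DKO1 against ACSS2 KO (-0.025) under quantile normalization, and without both libraries for Tpi1 (-0.18 against ACLY KO, -0.21 against ACSS2 KO) and Ldha (-0.19 against ACSS2 KO) in DKO1. Equal totals moved the median of all genes by about 0.1 in ACLY KO and 0.11 in ACSS2 KO against WT. Same-numbered libraries did not pair (correlations of -0.43 to 0.45 over 18 pairs), and a replicate block gave 19, 17, 22, 12, 24 and 14 calls and 6 ratios.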
